A study of Mus musculus with 26 samples.

Results

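Vomeronasal type 1 receptor (Vmn1r) genes were placed against the chromatin domain boundaries of mouse embryonic stem cells (ESCs). The members were all protein-coding genes of the RefSeq annotation of GRCm38, the build also called mm10, whose symbol begins with Vmn1r. The rule gave 231 genes. A chromosome position was known for 229 of them, out of 21521 placed protein-coding genes, and Vmn1r186 and Vmn1r187 lie on other scaffolds and were not placed. V1ra8 and V1rd19, which keep an older style of V1r symbol, lie inside Vmn1r arrays but fall outside the rule.

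The study measured chromatin contacts by Micro-C, in which micrococcal nuclease cuts the chromatin before neighbouring ends are ligated and sequenced, in cells in G1. All 26 libraries carry the same alteration, a degradable dTAG on the cohesin subunit RAD21 in a C57BL/6J line derived from Bruce-4 ESCs, so the vehicle controls carry it too. ESCs were given 0.05% v/v DMSO (6 libraries), 500 nM dTAG ligand, which depletes RAD21 (6 libraries), or A485 at 20 µM, which blocks p300 and CBP acetyltransferase activity (6 libraries), and epiblast-like cells (EpiLCs) were given DMSO (4 libraries) or dTAG (4 libraries). The data used here are 1 list of 3515 boundary intervals, each 25 kb wide, that pools the DMSO-treated ESCs; the other 4 groups were not analysed here. The list has no replicates, no boundary strength and no contact depth, so the values below are descriptions without a test between samples. Intervals on shares are 95% Wilson intervals and cover counting error only, and members of an array share their boundaries. A boundary list gives no expression, so the cell type could not be checked against markers.

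Vmn1r genes encode G protein-coupled receptors of the apical sensory neurons of the vomeronasal organ, where they detect small volatile and steroid cues from other animals. The receptors signal through Gαi2 and the channel TRPC2, and each neuron is known to express a single receptor gene from 1 allele. The genes are short, have a single coding exon and arose by repeated local duplication, so they sit in tandem arrays of close relatives. Topological domains are stretches of chromatin with more contacts inside than across their borders, and in mammals many borders are made by cohesin halted at CTCF sites.

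Vmn1r genes lay far from boundaries in ESCs. Only 5 of 229 (2.18%, interval 0.936 to 5.01) had an end inside a boundary or within 10 kb of one, against 18.3% of all protein-coding genes. The median Vmn1r gene was 481 kb from the nearest boundary (quartiles 209 and 1390 kb), and the median protein-coding gene 98.9 kb (quartiles 22.8 and 229 kb). The genes filled 13 loci on 7 chromosomes. An array of 86 genes on chromosome 7 with no boundary inside it held the members farthest from any.

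Sequences of 5 members show the genes that the results turn on. Vmn1r223 and Vmn1r4 touch a boundary. The sequence of Vmn1r93 recurs along the largest array, at Vmn1r114, Vmn1r126 and, about 2 Mb further on, Vmn1r250. Vmn1r20 and Vmn1r27 are close relatives on opposite sides of a boundary. Each printed sequence is RefSeq's window of 300 bases on GRCm38.p6, read 5′ to 3′ on the gene's strand. It runs from 250 bases before the start the window table uses to 50 after it. That start differs from the outer end of the annotated gene in 8 of 206 members; for Vmn1r4 it lies 32.599 kb inside the gene, past the boundary. The windows are chr13:23248988-23249287 (plus strand) for Vmn1r223, chr6:56956263-56956562 (plus) for Vmn1r4, chr7:20139039-20139338 (minus) for Vmn1r93, chr6:57431441-57431740 (plus) for Vmn1r20 and chr6:58215968-58216267 (minus) for Vmn1r27. Capitals mark the word TATAAA and a start codon at base 251 in the first 3, and the bases that differ between Vmn1r20 and Vmn1r27 in the other two.
Vmn1r223: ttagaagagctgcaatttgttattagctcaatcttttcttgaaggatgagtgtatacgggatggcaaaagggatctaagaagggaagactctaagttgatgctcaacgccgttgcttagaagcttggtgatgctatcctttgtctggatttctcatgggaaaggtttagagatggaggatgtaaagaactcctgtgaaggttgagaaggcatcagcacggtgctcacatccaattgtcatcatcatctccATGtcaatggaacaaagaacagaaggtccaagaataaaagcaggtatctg
Vmn1r4: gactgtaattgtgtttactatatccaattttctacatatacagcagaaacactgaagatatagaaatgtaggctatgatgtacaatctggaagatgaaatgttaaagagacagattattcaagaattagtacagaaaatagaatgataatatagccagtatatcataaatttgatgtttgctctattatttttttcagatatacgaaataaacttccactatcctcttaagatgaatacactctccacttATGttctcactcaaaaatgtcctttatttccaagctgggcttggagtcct
Vmn1r93: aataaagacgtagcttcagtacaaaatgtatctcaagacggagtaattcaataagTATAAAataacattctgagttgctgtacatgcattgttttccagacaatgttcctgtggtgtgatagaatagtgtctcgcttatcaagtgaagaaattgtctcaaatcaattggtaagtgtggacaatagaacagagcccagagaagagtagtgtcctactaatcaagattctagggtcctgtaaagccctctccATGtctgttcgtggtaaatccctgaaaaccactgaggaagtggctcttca
Vmn1r20: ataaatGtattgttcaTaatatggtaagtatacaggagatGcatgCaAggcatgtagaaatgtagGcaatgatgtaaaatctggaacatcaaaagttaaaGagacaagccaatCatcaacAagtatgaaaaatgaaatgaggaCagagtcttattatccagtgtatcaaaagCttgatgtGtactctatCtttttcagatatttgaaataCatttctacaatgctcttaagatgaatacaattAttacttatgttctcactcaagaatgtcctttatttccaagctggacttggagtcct
Vmn1r27: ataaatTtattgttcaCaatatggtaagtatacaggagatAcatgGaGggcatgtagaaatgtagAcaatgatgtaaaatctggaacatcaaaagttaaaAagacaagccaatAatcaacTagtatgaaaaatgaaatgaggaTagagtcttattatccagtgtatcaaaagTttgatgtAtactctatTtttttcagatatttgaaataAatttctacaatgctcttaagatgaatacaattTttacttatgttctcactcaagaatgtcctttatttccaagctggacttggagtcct

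The annotated start of most members is the start codon, not a mapped transcription start. An ATG stands at base 251 of the window in 181 of the 206 members that the window table holds (87.9%), against 5.83% of all 32851 windows, and the length of 200 of the 229 members is a multiple of 3. The median member is 0.924 kb long, close to a coding exon alone, and the median protein-coding gene 17.4 kb. Only 20 members are 2 kb or longer.

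The loci divide as 10 arrays with 226 members and 3 lone genes. Members of a chromosome were assigned to separate loci where neighbours lay over 1 Mb apart. Chromosome 7 holds 124 members (54.1%), chromosome 6 holds 51 (22.3%), chromosome 13 holds 36 (15.7%) and chromosome 17 holds 14 (6.11%). Chromosome 4 has a pair, Vmn1r2 and Vmn1r3, and the lone genes are Vmn1r1 on chromosome 1, Vmn1r90 on chromosome 7 and Vmn1r238 on chromosome 18. The letters a to e number the loci along chromosomes 6 and 7.

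**Figure D1:**
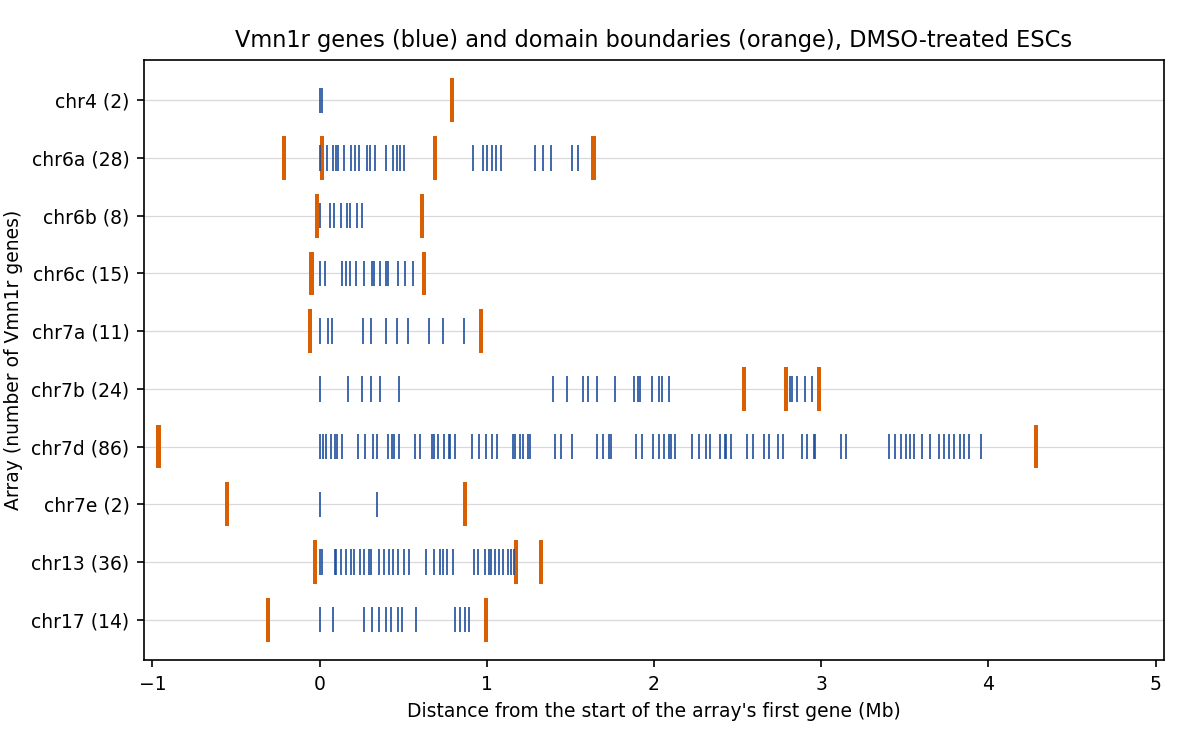
Map of the 10 arrays; the x axis is the distance from the start of each array's first Vmn1r gene (Mb), blue ticks are Vmn1r genes and orange bands are boundary intervals inside the array or next to it. Only those boundaries are drawn, and the left boundary of chr7b lies off the scale; the 86 genes of chr7d have none between them.

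The largest array, chr7d, runs from Vmn1r91 to Vmn1r183 over 3954.534 kb (chr7:20101158-24055691). Its 86 members and 18 other protein-coding genes had 0 boundaries among them. The nearest boundaries lay 951.158 kb to the left, beyond 43 protein-coding genes, and 319.31 kb to the right, beyond 12. The distances of its members to a boundary rose from either edge towards the middle, with a median of 1620 kb and a range of 319 to 2610 kb. Its neighbours outside are Nlrp9b, an NLR-family gene, and Zfp180, a zinc finger gene.

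The 5 members farthest from a boundary were Vmn1r247 (2610.531 kb), Vmn1r248 (2578.273 kb), Vmn1r135 (2541.727 kb) and Vmn1r249 (2530.734 kb) of chr7d and Vmn1r66 (2524.65 kb), the first gene of chr7b. They are not the extreme of the genome. Vmn1r247 ranked 127 among all protein-coding genes by distance, and 0 members were among the 100 farthest.

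The array chr7b, from Vmn1r66 to Vmn1r89, has 24 members over 2946.462 kb and is the most mixed. It holds 29 other protein-coding genes, among them the zygotic genome activation genes Zscan4b, Zscan4c, Zscan4d and Zscan4f, the co-repressor gene Trim28 and the type 2 receptors Vmn2r53 to Vmn2r56. Its 2 boundaries, chr7:12800001-12825000 and chr7:13050001-13075000, both lie between Vmn1r84 and Vmn1r85, in a stretch of 721.524 kb with zinc finger genes. The median distance to a boundary was 702 kb (9.29 to 2520 kb). The 5 members past both boundaries, Vmn1r85 to Vmn1r89, filled a domain of 175 kb with no other protein-coding gene.

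On chromosome 6, chr6a (Vmn1r4 to Vmn1r31) has 28 members over 1548.965 kb and 2 boundaries. The first lies inside Vmn1r4. The second, chr6:57600001-57625000, lies in a gap of 410.961 kb between Vmn1r20 and Vmn1r21 and has no protein-coding gene end within 10 kb. It parts 16 members in a domain of 650 kb from 11 in a domain of 925 kb. Their distances had a median of 214 kb (1.09 to 383 kb). The array lies between Fkbp9, a peptidyl-prolyl isomerase gene, and Abcg2, a transporter gene, and Ppm1k, Herc6, Pyurf, Lancl2 and Vopp1 lie within it.

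The arrays chr6b (Vmn1r32 to Vmn1r39, 8 members, 253.15 kb) and chr6c (Vmn1r40 to Vmn1r54, 15 members, 558.793 kb) had no boundary inside. Array chr6b begins 2.183 kb from a boundary and ends 344.669 kb from the next, with Mad2l1, a spindle checkpoint gene, and Gng12 as its neighbours. Array chr6c reaches to 36.261 and 54.948 kb of its boundaries, between Txnrd3 and BC048671, and fills 86.0% of its domain. Median distances were 147 kb in chr6b and 194 kb in chr6c.

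On chromosome 13, the 36 members from Vmn1r188 to Vmn1r223 nearly filled their domain. The array spans 1162.446 kb, or 98.9% of the 1175 kb between chr13:22050001-22075000 and chr13:23250001-23275000, and Gm11295 is the only other of its 37 protein-coding genes. Histone genes lie just outside the left boundary (H4c9, H2ac11 and H2bc11 have an end within 10 kb of it), and 12.878 kb separate it from Vmn1r188. The right boundary begins inside the last gene, Vmn1r223. Distances had a median of 228 kb (0 to 545 kb), and beyond lies Zfp322a.

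The remaining arrays had no boundary inside. Array chr7a (Vmn1r55 to Vmn1r65, 11 members, 864.521 kb, between Rasl2-9 and Nlrp4c) had a median distance of 274 kb. The array on chromosome 17 (Vmn1r224 to Vmn1r237, 14 members, 895.724 kb, between Vmn2r107 and Zfp677) had a median of 445 kb and shares its domain with 6 Vmn2r genes and the formyl peptide receptor genes Fpr-rs3 and Fpr-rs6. Array chr7e has only Vmn1r184 and Vmn1r185, among cytochrome P450 genes between Cyp2b9 and Cyp2b23, at a median of 527 kb. Vmn1r2 and Vmn1r3, at a median of 771 kb, lie before the first boundary of chromosome 4 and next to Gm52720.

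The distances therefore differed widely between loci. All 10 arrays, and 12 of the 13 loci, had a median above the 98.9 kb of protein-coding genes, and the median over loci was 274 kb. The exception was the lone Vmn1r1.

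**Figure D2:**
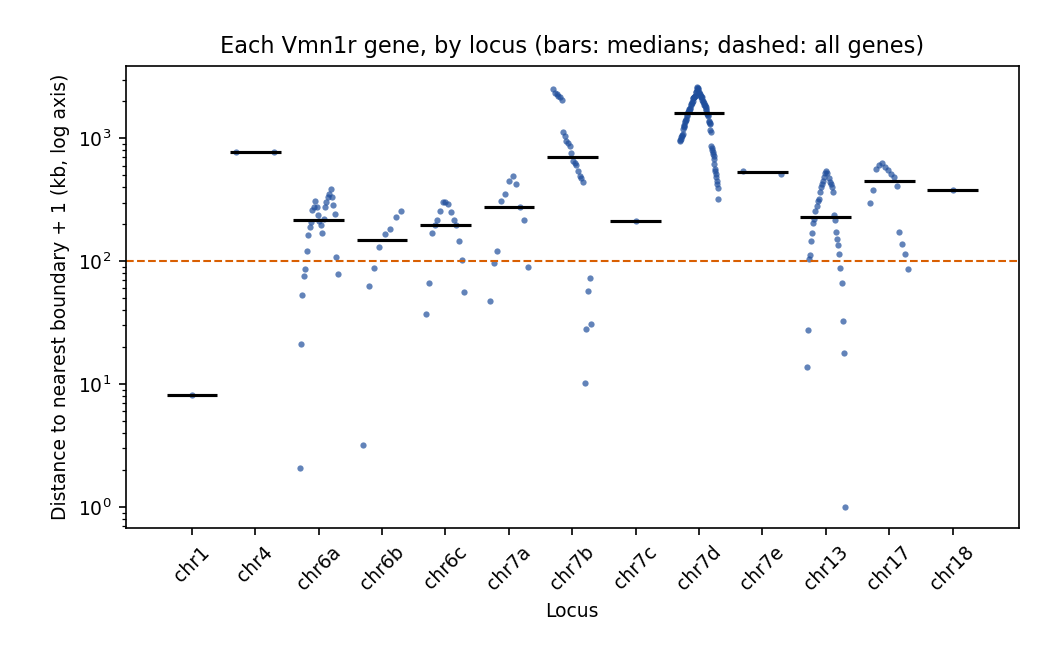
Distance of each Vmn1r gene to its nearest boundary plus 1 (kb, log axis) by locus, with genes in chromosome order from left to right within a locus, black bars at locus medians and a dashed line at the median of all protein-coding genes (98.9 kb). Medians run from 7.18 kb for the lone gene on chromosome 1 to 1620 kb for chr7d, where distances peak mid-array.

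The 5 members near a boundary came from 5 loci, and each is the first or last gene of its locus or stands beside a boundary within it. Vmn1r223 was the only one with an end inside a boundary; its annotated start lies 0.763 kb outside. Vmn1r4, annotated as 33.695 kb long, spans a whole boundary (chr6:56925001-56950000), with ends 1.087 and 7.608 kb from it. The start codon in its window lies 6.513 kb past the boundary, on the side of the other members, and Nt5c3, a nucleotidase gene, also ends near that boundary.

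Vmn1r32 ended 2.183 kb from the boundary it shares with Mad2l1, and its annotated start was 9.708 kb away. Vmn1r1 ended 7.178 kb from a boundary near Srp9, a signal recognition particle gene. Vmn1r85 was just inside the limit at 9.289 kb, by a boundary near the zinc finger gene Mzf1. Just outside it were Vmn1r188 at 12.878 kb, Vmn1r222 at 16.96 kb and Vmn1r5 at 20.335 kb. The start of transcription of these genes in the vomeronasal organ is not given by the table.

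Wider limits gave the same order. Within 50 kb lay 14 members (6.11%) and 35.6% of protein-coding genes. Over 500 kb from a boundary were 110 members (48.0%), against 7.29% of protein-coding genes, and over 1000 kb were 75 (32.8%), against 2.42%. Vmn1r genes are 1.06% of placed protein-coding genes and 14.4% of the 520 that lie over 1000 kb away. All 75 are on chromosome 7.

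**Figure D3:**
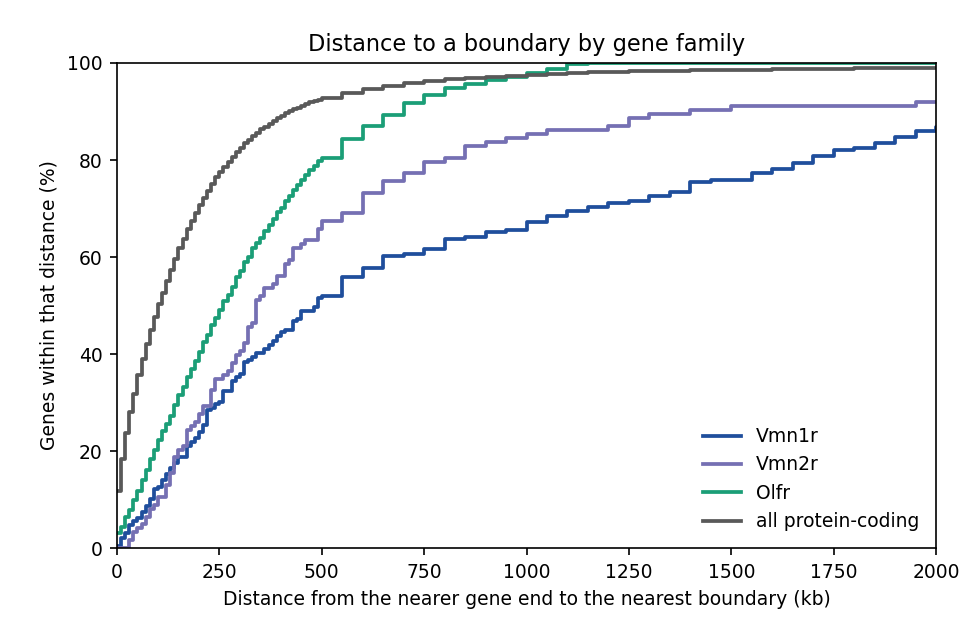
Share of genes (%) whose nearer end lies within a given distance (kb) of a boundary, for Vmn1r (229), Vmn2r (123), Olfr (1109) and all protein-coding genes (21521). The Vmn1r line is the lowest at 500 kb, with 48.0% of Vmn1r genes and 7.29% of all genes farther away than that.

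The other large families of chemosensory receptors, Vmn2r and Olfr, also had medians above that of protein-coding genes, and smaller families varied. Of the 123 type 2 vomeronasal receptors (Vmn2r, expressed in basal vomeronasal neurons), 0 were near a boundary, which allows a share of up to 3.03%, and their median distance was 337 kb. Of 1109 odorant receptor genes (Olfr), 48 (4.33%) were near, with a median of 254 kb. The 15 trace amine-associated receptors (Taar) had 0 near and a median of 120 kb, close to the 98.9 kb of protein-coding genes. Of 7 formyl peptide receptor genes (Fpr), 2 were near, and of 6 H2-M10 genes, which encode MHC molecules of vomeronasal neurons, 2 were near; their medians of 45.5 and 30.0 kb were below that of protein-coding genes.

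Genes of like length and other genes of the same domains were set beside the members. Among protein-coding genes 0.8 to 1.5 kb long outside the Vmn1r, Vmn2r and Olfr families, 36 of 567 (6.35%, interval 4.62 to 8.66) were near a boundary and the median was 159 kb. Of Vmn1r genes of that length, 3 of 203 (1.48%, interval 0.504 to 4.25) were near, with a median of 509 kb. The 185 other protein-coding genes in the same domains, Vmn2r genes among them, had 10 near (5.41%) and a median of 337 kb. Without the Vmn2r genes, 10 of 150 (6.67%) were near and the median was 283 kb. V1ra8 and V1rd19 are counted in both sets. Both sets were chosen by domain and so share the boundaries of the members. The chromosome 7 domains of 5225 and 5825 kb hold 74 and 45 of the 185 genes. Whether length or the surroundings account for the distances was not tested.

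Chromosomes 6, 7, 13 and 17 each gave a larger median for members than for their other protein-coding genes. The medians were 195 against 86.3 kb on chromosome 6, 1310 against 124 kb on chromosome 7, 228 against 73.1 kb on chromosome 13 and 445 against 119 kb on chromosome 17. Near a boundary were 2 of 51 members and 19.3% of other genes on chromosome 6, and 1 of 124 and 15.1% on chromosome 7. On chromosome 13 they were 1 of 36 and 23.7%, and on chromosome 17 they were 0 of 14 and 16.2%. Chromosome 7 weighs on the pooled values: without it 4 of 105 members (3.81%) were near and their median was 218 kb, and without chr7d alone the median was 254 kb.

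Vmn1r genes were concentrated in a few large domains, the stretches between neighbouring boundaries. They lay in 13 such domains and, for 3 members, in chromosome-start stretches before a first boundary, while the midpoint of Vmn1r4 fell in a boundary. The 13 domains had a median length of 1000 kb, against 500 kb for all 3495, and 11 were longer than 500 kb. Domains of 1 Mb or more held 169 members (73.8%) and 26% of protein-coding genes. By gene midpoints, 8 of 10 arrays lay within a single domain, counting the chromosome 4 pair in its chromosome-start stretch.

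The 3 fullest domains held 141 members (61.6%). The domain of chr7d, chr7:19150001-24375000, is 5225 kb long, the 5th longest, and holds 86 Vmn1r and 74 other protein-coding genes, among them Ercc2 and the apolipoprotein gene Apoe. Its 160 protein-coding genes were the most in any domain; the next held 90, of which 87 were Olfr genes, and the median domain held 3. The domain of the chromosome 13 array holds 36. The domain chr7:6975001-12800000, 5825 kb long and the third in length, holds 19 Vmn1r genes and 45 others, 28 of them Vmn2r.

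**Figure D4:**
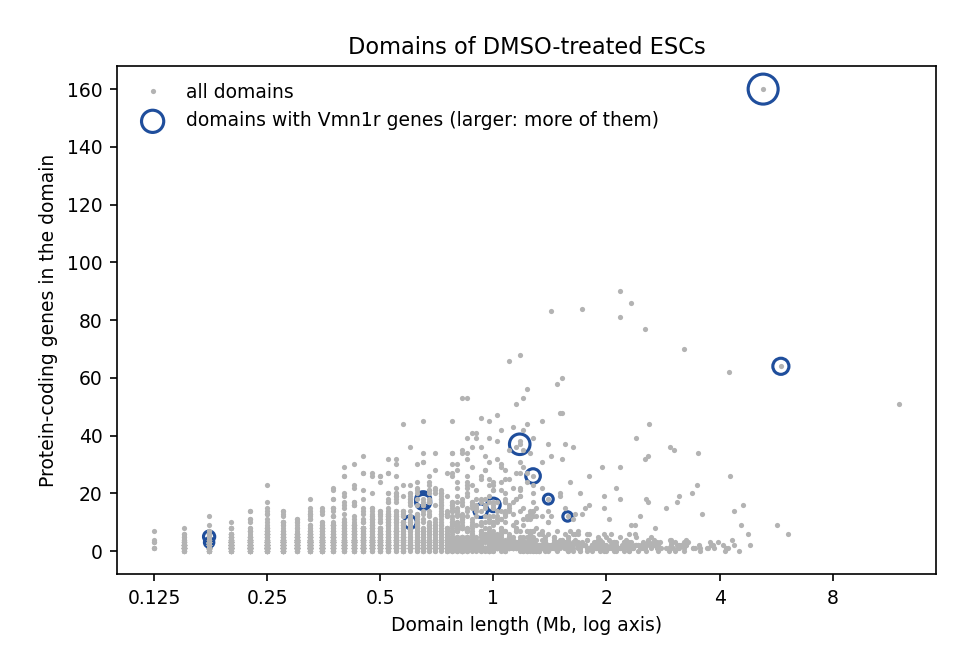
Length (Mb, log axis) and number of protein-coding genes of all 3495 domains (grey points), with the 13 domains that hold Vmn1r genes ringed in blue and larger rings for more Vmn1r genes. The chr7d domain stands at 5.22 Mb and 160 genes; the median domain holds 3 genes.

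Boundaries were sparse inside the arrays. There were 5 in 12.5 Mb of Vmn1r array, or 0.399 per Mb, against 0.373 per Mb in Vmn2r arrays, 1.09 in Olfr arrays and 1.37 over the annotated chromosomes. Of 216 neighbouring Vmn1r pairs up to 1 Mb apart, 2 (0.926%, interval 0.254 to 3.31) had a boundary between them, namely Vmn1r20 with Vmn1r21 and Vmn1r84 with Vmn1r85. The share was 4.76% of Vmn2r pairs, 3.4% of Olfr pairs and 14.8% of all neighbouring protein-coding pairs. The widest gap of all, 920.06 kb between Vmn1r71 and Vmn1r72, had none. Array chr7d supplied 3.95 of the 12.5 Mb and 0 of the 5 boundaries. Neither the rate nor the pair shares were taken without that array.

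Vmn1r neighbours at close range were never separated. Among pairs up to 100 kb apart, 0 of 193 Vmn1r pairs and 0 of 71 Vmn2r pairs had a boundary between them, against 25 of 1027 Olfr pairs (2.43%) and 11.0% of all pairs. The 2 separated pairs are among the 3 widest.

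The boundaries inside or next to the loci usually lay at genes of other families. Of these 29 boundaries, 26 (89.7%) had a protein-coding gene end within 10 kb, Vmn1r genes included, against 64.3% of all boundaries. A Vmn1r end was near 5 of them, and at chr13:23250001-23275000 that of Vmn1r223 was the only gene end. The boundaries with no protein-coding gene end were the one between Vmn1r20 and Vmn1r21, the right boundary of chr6b and the left boundary of Vmn1r90. Examples are Kcnn4 and Smg9 to the right of chr7d, Tgfb1 to the left of chr7e, and Zswim9 and the DNA ligase gene Lig1 to the right of chr7b.

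Relatedness was compared through the upstream windows, since protein sequences were not analysed here. Identity is the count of matching bases in a global alignment over the 300 bases. Pairs on different chromosomes had a median of 51.7% (12976 pairs), which serves as the background, and pairs of the same array and domain 81.3% (4424 pairs). With no cost for gaps at the ends, these medians were 2.33% and 81.3%. The background value, and values near it, therefore depend on how whole windows are aligned. Pairs share members and are not independent. Array chr7d supplied most of the latter and had a median of 84.3%, while the other arrays had within-domain medians from 52.0% (chr6c) to 74.0% (chr6b).

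Likeness did not stop at the boundaries of chr6a. Its pairs within a domain had a median identity of 68.3% (123 pairs) and its pairs in different domains, or with Vmn1r4 in the boundary, 69.3% (153 pairs). Vmn1r20 and Vmn1r27, printed above, lie 784.527 kb apart on opposite sides and shared 95% of their windows. Vmn1r17 and Vmn1r31 shared 93.7%. In chr7b the medians were 54.7% within a domain and 50.7% across its boundaries, near the background.

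Array chr7d held most of the near-identical windows. For 75 of its 83 members with a window, another member reached 90% identity, out of 104 such members among all 206, and 52 of them shared an identical window with another member. Of the 52 identical pairs in all, 51 were in this array, at a median of 1320 kb apart. Picked by an offset of about 2 Mb, 14 pairs lay 1989.1 to 1995.667 kb apart. They run from Vmn1r93 to Vmn1r112 (chr7:20138123-20772078) and from Vmn1r250 to Vmn1r157 (chr7:22133776-22762590). The same order in both stretches follows from so even an offset. Identical pairs also lay at other offsets, among them 6 pairs 1222.745 to 1223.198 kb apart. Vmn1r93 and Vmn1r250 have the same window, printed above for Vmn1r93. Vmn1r114 and Vmn1r126, 673.098 and 1162.379 kb from Vmn1r93, have it too.

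**Figure D5:**
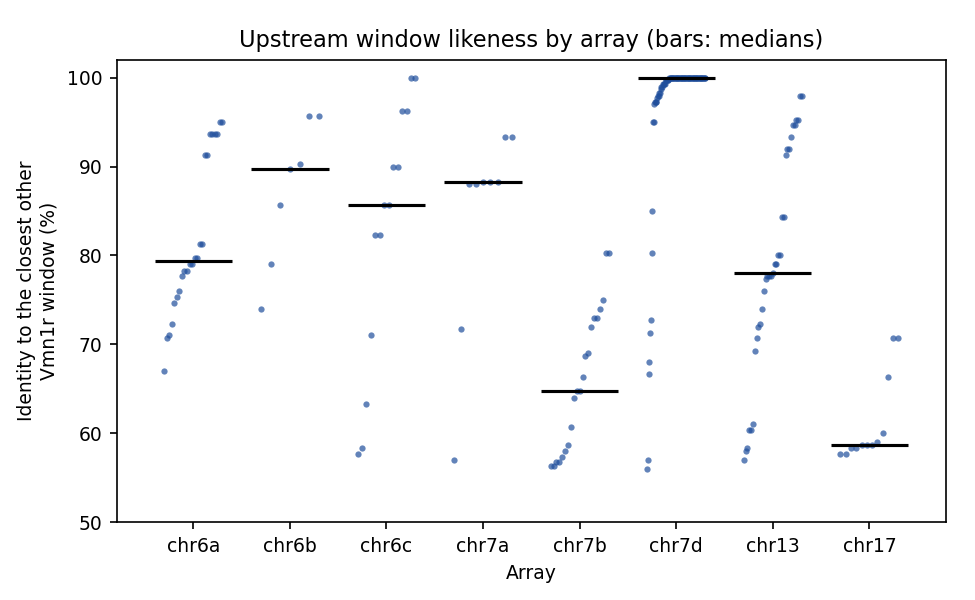
Identity (%) of each member's upstream window to its closest other Vmn1r window, for arrays with at least 5 members that have one; black bars are medians. The median is 100% in chr7d and 58.7% on chromosome 17.

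The array with the longest distances thus also held most of the near-identical windows. Repeats outside the windows were not measured. A read that fits identical copies cannot be assigned to a single copy. What part this has in the absence of boundaries there was not tested.

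The windows were poor in G and C. Median GC was 36.0% in Vmn1r windows, 38.2% in Vmn2r, 35.0% in Olfr and 52.7% in all windows. No CpG was present in 44 Vmn1r windows (21.4%), against 28.8% of Vmn2r, 33.3% of Olfr and 5.43% of all windows. In chr7d 1 of 83 windows (1.2%) held none. For windows with a start codon at the start, the shares without CpG were 19.9% for Vmn1r and 11.9% for other genes. Among windows that start at a start codon median GC was 36.0% for Vmn1r and 47.0% for 929 windows of other genes outside the receptor families. Among arrays the median GC ranged from 30.7% in chr6a to 43.2% in chr6c.

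The word TATAAA, searched on the gene's strand, was present in 66 of 206 Vmn1r windows (32.0%), against 8.32% of all windows. It was present in 23.3% of Olfr and 14.4% of Vmn2r windows. On either strand the shares were 42.2% for Vmn1r, 41.0% for Olfr, 22.9% for Vmn2r and 13.6% for all. In windows that start at a start codon it was present in 33.7% for Vmn1r and 12.1% for other genes. Of the 66 Vmn1r windows with it, 37 were in chr7d (44.6% of the windows there), where 52 of 83 windows are identical to another. It was found in 52.4% of windows in chr7b, and in 0 of 7 in chr6b and 0 of 14 in chr6c. No Vmn1r window held it 20 to 50 bases before the annotated start, where 2.32% of all windows do. A match is a description of letters, and most of these windows do not begin at a transcription start. Median GC was 36.0% in Vmn1r windows and 52.7% in all windows, and what part base composition has in these shares was not tested.

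Genes of vomeronasal signalling, some of them of basal neurons, lie elsewhere in the genome. Of 10 vomeronasal signalling genes, 2 (20.0%, interval 5.67 to 51.0) were near a boundary, beside 18.3% of all protein-coding genes, and the median distance was 133 kb, beside 98.9 kb. Their difference from the receptors was not tested. Gnao1, the Gα subunit of basal vomeronasal neurons, had an end inside a boundary, and Omp, the olfactory marker protein, lay 4.55 kb away. Gnai2, the Gα subunit that couples to V1R receptors, lay 39.1 kb away and the chloride channel gene Ano2 40.4 kb. Trpc2, the main transduction channel, lay 128 kb away in a domain of 550 kb with 20 protein-coding genes. The chloride channel gene Ano1 followed at 139 kb, the Gγ gene Gng8 at 155 kb, the chaperone gene Calr4 at 193 kb, and the potassium channel genes Kcnj3 at 337 kb and Kcnn3 at 828 kb.

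Of 9 genes for the fate of vomeronasal neurons, 1 was near (11.1%, interval 1.99 to 43.5), and the median was 103 kb. Lhx2, a homeobox gene of sensory neurons, lay 5.26 kb from a boundary and Meis2, also a homeobox gene, 32.5 kb. Notch1 was at 96.2 kb, Neurod1 at 103 kb, Bcl11b, which acts in the choice between apical and basal neurons, at 146 kb, and Neurog1 at 198 kb. Tfap2e, a factor of basal neurons, was at 264 kb and the Notch ligand gene Dll4 at 289 kb. No gene of either list was over 1000 kb from a boundary. With lists this short, 1 gene moves a share by 10 percentage points or more.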

How the data were processed

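The deposited list gives interval starts and ends, called by the authors from pooled DMSO-treated ESC libraries, with no score. The submitters' processing notes name BWA 0.7.17, Juicer 1.22.01 and mm10. How boundaries were called, and at what threshold, is not given in the sources used here, and depth is unknown. Positions are printed counted from 1. Gene positions came from RefSeq for GRCm38.p6; genes listed after the sorted ones of a chromosome carry scaffold positions, and these 345 (110 protein-coding) were dropped. Distance is from the nearer gene end to the nearest interval, and near means within 10 kb. Strand came from the window table, which holds 206 of the 229 members. Named genes are the members near a boundary, just outside, farthest away, at array ends and beside inner boundaries, their nearest neighbours, the most alike pairs and the pathway lists. Single values of some of these genes are not reported here. Members and lists were chosen with earlier results of these data known. Scripts were tested on simulated positions. The software was Biopython 1.88, matplotlib 3.10.9, pandas 2.3.3 and numpy 2.4.6 in Python 3.11.15.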

Additional observations from a re-analysis of the deposited data

How the results depend on the processing

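The share of members near a boundary was 0.437% with no window, 6.11% at 50 kb and 0% with interval midpoints only, against 11.7%, 35.6% and 9.59% of all protein-coding genes. The median distance was 218 kb without chromosome 7 and, chosen after seeing the data, 254 kb without chr7d. Splitting arrays at 0.5 Mb left 3 boundaries inside them, and limiting pairs to 0.5 Mb left 1 separated pair of 214. Splitting at 2 Mb, or adding pseudogenes, gave 7 boundaries inside arrays. With gene midpoints the share of members stayed at 2.18% while that of all protein-coding genes fell from 18.3% to 11.2%. Keeping scaffold genes gave 2.16% and 481 kb. The 13 domains and 2 chromosome-start stretches with members, 15 in all, stayed 15 when boundaries were merged, a setting run for the domains alone. The planned comparison of protein identity was not run; window identity replaced it after the files were seen. No paired analysis was possible because the list pools its libraries and has no per-sample values. Depth, mappability and replicate spread of the boundaries could not be assessed.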

Other observations

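Orientation was mixed. Of 181 neighbouring Vmn1r pairs of known strand, 99 (54.7%) pointed the same way, against 77.9% of Vmn2r pairs, 69.6% of Olfr pairs and 52.2% of all protein-coding pairs. The longest run on 1 strand was of 9 genes, from Vmn1r194 to Vmn1r201 on chromosome 13.

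Vmn1r pseudogenes were also placed. Of 138 placed pseudogenes, 109 are inside the arrays, 7 (5.07%, interval 2.48 to 10.1) were near a boundary and their median distance was 337 kb. The median of the members was 481 kb with chr7d and 254 kb without it. The pseudogene median includes the pseudogenes of chr7d and was not taken without them, so the order of the groups outside that array is not shown. The intervals of the near shares overlap. The chromosome 13 array holds 36 pseudogenes beside its 36 members, while chr7d holds 13 beside 86.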
